A study of Mus musculus with 28 samples.

Results

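Some genes that the monoclonal kidney epithelial line WT5 expressed were close to 0, or listed at 0, in 1 or 2 of the 5 subclones derived from it. The 7 genes described here are Cdcp1, Aplp1, Prrg1, Zfp518b, Gsdmd, Larp6 and Clec2l, out of 45706 genes in the tables. They were selected because they were expressed in WT5 and near 0 in 1 or 2 subclones, so their difference between WT5 and the subclones is the basis of the choice. It is given below as a description, without a test. RNA sequencing had been done on 28 libraries of mIMCD-3 cells, an epithelial line derived from inner medullary collecting ducts of an SV40 transgenic mouse, without genome editing in any group used here. The 4 libraries of polyclonal WT came from the parental cell pool, the 4 libraries of WT5 from a line grown from 1 sorted cell, and the 4 libraries of each of subclones 1 to 5 from single cells sorted from WT5 and expanded for about 6 weeks. WT5 and each subclone are therefore 1 clone each, and the libraries of a line repeat that clone. The methods call these libraries biological replicates while a legend calls them technical. P-values therefore measure only the spread between libraries of a line, except where 4 subclones are pooled as 1 group below.

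The 7 genes have no shared pathway. Cdcp1 encodes a transmembrane glycoprotein that Src family kinases phosphorylate and serine proteases cleave, and Aplp1 is a relative of the amyloid precursor protein that secretases process. Prrg1 is a single-pass membrane protein with a domain rich in gamma-carboxyglutamate, a residue made in a vitamin K dependent reaction, and Clec2l is a C-type lectin-like membrane protein. Gsdmd, gasdermin D, forms the membrane pore of pyroptosis after cleavage by inflammatory caspases. Zfp518b is a zinc finger protein that associates with histone methyltransferases, and Larp6 is an RNA-binding protein of the La family that binds collagen mRNAs. The question put to these data is how far single cells taken from 1 clone give rise to lines that express the same genes.

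Levels are in TPM, a measure of transcript abundance normalised for gene length and scaled to the same total in every library, which keeps no sequencing depth. Between 18681 and 19272 genes were above 0 in polyclonal WT libraries, 16318 to 16536 in WT5 libraries and 16270 to 17004 in the subclone libraries. None of 12 housekeeping genes and 75 ribosomal protein genes was at 0 in any library. All 13 kidney epithelial markers reached a mean of 1 TPM in at least 1 group, and their summed mean level was 2474 TPM in polyclonal WT, 4559 TPM in WT5 and 2968 to 3432 TPM in the subclones. Of these, Gata3 had a mean of 4.08 TPM in polyclonal WT but only 0.04 TPM in WT5. Of 8 principal cell markers, 4 reached 1 TPM in a group, and their summed mean level was 26.2 TPM in polyclonal WT, 6.58 TPM in WT5 and 4.95 to 19.7 TPM in the subclones. Aqp2, the water channel that defines principal cells, was listed at 0 in all 28 libraries, the sodium channel subunit gene Scnn1g was at 1 TPM or more in all 28, and the vasopressin receptor gene Avpr2 had 10.57 TPM in polyclonal WT but 0.06 TPM in WT5. Slc14a2, a urea transporter gene, went the other way, from 0.01 TPM in polyclonal WT to 0.293 TPM in WT5. In the subclones it lay on either side of WT5, with means of 0.1375, 0.0025, 0.0225, 4.99 and 2.4 TPM in subclones 1 to 5. Of the markers for other cell types, none of 4 endothelial and 5 fibroblast genes reached 1 TPM in any group, and 1 each did of 4 intercalated cell, 4 proximal tubule, 3 podocyte and 4 leukocyte genes. These were Atp6v1b1 (1.33 TPM in polyclonal WT), Lrp2 (1.52 TPM in polyclonal WT, 3.71 TPM in WT5 and 6.08 to 8.22 TPM in the subclones), Podxl (0.420, 15.3 and 11.7 to 25.03 TPM) and Cd68 (group means of 1.83 to 3.73 TPM). The defining genes Foxi1, Slc34a1 and Adgre1 were listed at 0 in all libraries, and Nphs1 and Ptprc stayed below 0.5 TPM. In bulk RNA, fewer cells expressing a gene and less RNA per cell cannot be told apart.

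A gene was counted as lost in a subclone where the mean of its 4 libraries was at most 10% of the WT5 mean. By this measure the 7 genes were lost in 10 of 35 combinations of gene and subclone. Subclone 1 had lost Prrg1, Gsdmd and Larp6, subclone 2 Cdcp1, Gsdmd and Clec2l, subclone 3 Aplp1, subclone 4 Zfp518b, and subclone 5 Aplp1 and Prrg1. In 5 combinations, covering 4 genes, all 4 libraries were listed at 0. In every one of the 10, the libraries of the subclone did not overlap with those of WT5 or of the subclones that kept the gene. The combination closest to the threshold on the lost side was Aplp1 in subclone 3 at 6.61% of WT5, and the closest on the other side was Zfp518b in subclone 3 at 29.7%.

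**Figure D1:**
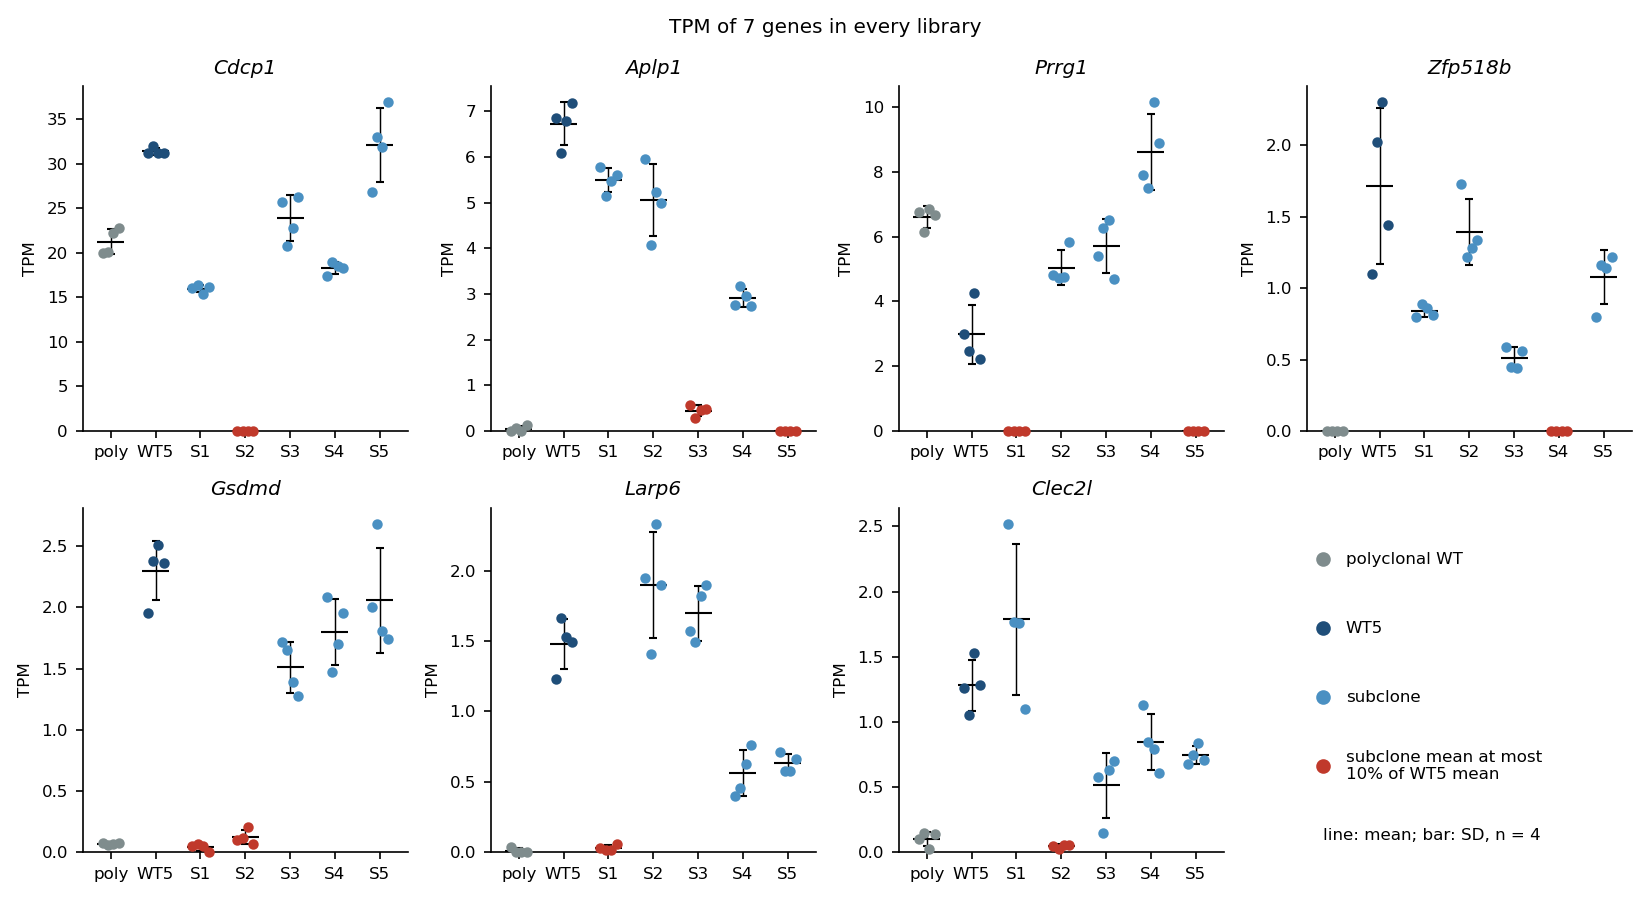
TPM of each gene (vertical axes, linear, from 0) in the 4 libraries of polyclonal WT (poly), WT5 and subclones 1 to 5 (S1 to S5). Points are libraries, horizontal lines means and bars SD, and red points mark the 10 combinations in which the subclone mean was at most 10% of the WT5 mean.

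Cdcp1 was the most abundant of the 7 genes and was listed at 0 in subclone 2 only. The gene (ENSMUSG00000035498) lies at chr9:123170824-123216038 on the minus strand of GRCm38. The WT5 libraries had 31.25, 32.03, 31.19 and 31.22 TPM (mean 31.4 ± 0.406, SD, n = 4), and all 4 libraries of subclone 2 were listed at 0. Subclone 5 overlapped with WT5 at 26.81, 33.02, 31.86 and 36.89 TPM. The other 3 subclones lay below every WT5 library, with 25.75, 20.8, 22.8 and 26.31 TPM in subclone 3, 17.42, 18.92, 18.57 and 18.33 TPM in subclone 4, and 16.06, 16.37, 15.41 and 16.13 TPM in subclone 1. Polyclonal WT, at 20.03, 20.13, 22.19 and 22.74 TPM, overlapped with subclone 3 only. Among the 4 subclones that kept Cdcp1, the highest mean was 2.01 times the lowest.

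Aplp1 was listed at 0 in subclone 5 and was low in subclone 3. It (ENSMUSG00000006651) lies at chr7:30434982-30445535 on the minus strand. WT5 libraries had 6.86, 6.09, 6.78 and 7.19 TPM (6.73 ± 0.462, n = 4). Subclone 3 kept a trace, with 0.56, 0.28, 0.46 and 0.48 TPM, while the 4 libraries of subclone 5 had none. Subclones 1 and 2 overlapped with each other, at 5.15 to 5.77 TPM and 4.06 to 5.95 TPM, and subclone 4 was lower than both at 2.76, 3.17, 2.96 and 2.74 TPM. Every subclone library was therefore below every WT5 library. Polyclonal WT, with 0, 0.07, 0 and 0.13 TPM, was below subclone 3 and overlapped with subclone 5.

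Prrg1 separated the subclones into lines at 0 and lines above WT5. The gene (ENSMUSG00000047996) lies on the X chromosome, at chrX:78449613-78583896 on the minus strand, and encloses Gm22843, which is at 0 in all libraries. In WT5 its level was 3, 2.47, 4.25 and 2.21 TPM (2.98 ± 0.907, n = 4). All 8 libraries of subclones 1 and 5 were listed at 0. Subclones 2, 3 and 4 exceeded every WT5 library, with 4.81, 4.73, 4.74 and 5.84 TPM, 5.4, 6.25, 6.5 and 4.7 TPM, and 7.9, 7.5, 10.14 and 8.9 TPM. Subclone 4 was above all other groups, and polyclonal WT, at 6.77, 6.13, 6.86 and 6.65 TPM, overlapped with subclone 3, which in turn overlapped with subclone 2.

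Zfp518b was listed at 0 in subclone 4 and also in polyclonal WT. It (ENSMUSG00000046572) lies at chr5:38668484-38684826 on the minus strand. WT5 libraries spread from 1.1 and 1.44 to 2.02 and 2.3 TPM (1.72 ± 0.544, n = 4), and all 4 libraries of subclone 4 and all 4 of polyclonal WT were at 0. Subclone 2 (1.73, 1.22, 1.28 and 1.34 TPM) and subclone 5 (0.8, 1.16, 1.14 and 1.22 TPM) overlapped with WT5. Subclone 1 (0.8, 0.89, 0.86 and 0.81 TPM) overlapped with subclone 5, and subclone 3 was lower again at 0.59, 0.45, 0.44 and 0.56 TPM.

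Whether the genes listed at 0 have a common type of promoter was examined on the RefSeq sequence (GRCm38.p6), from 250 bases before to 50 bases after the transcription start. A promoter was found for 6 of the 7 genes, and Gsdmd was not among them. The 250 bases before the start are shown for the 4 genes that a whole subclone listed at 0, from 5′ to 3′ on the strand of the gene, with each CG dinucleotide, the site of cytosine methylation in mammalian DNA, in capitals. They span chr9:123216039-123216288 for Cdcp1, chr7:30445583-30445832 for Aplp1, chrX:78583898-78584147 for the first of 2 listed starts of Prrg1, and chr5:38684827-38685076 for Zfp518b, all on the minus strand.
Cdcp1: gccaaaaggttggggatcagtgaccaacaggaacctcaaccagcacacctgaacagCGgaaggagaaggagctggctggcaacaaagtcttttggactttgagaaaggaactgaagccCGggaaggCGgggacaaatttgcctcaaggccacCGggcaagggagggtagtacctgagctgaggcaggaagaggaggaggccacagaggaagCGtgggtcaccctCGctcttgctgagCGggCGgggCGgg
Aplp1: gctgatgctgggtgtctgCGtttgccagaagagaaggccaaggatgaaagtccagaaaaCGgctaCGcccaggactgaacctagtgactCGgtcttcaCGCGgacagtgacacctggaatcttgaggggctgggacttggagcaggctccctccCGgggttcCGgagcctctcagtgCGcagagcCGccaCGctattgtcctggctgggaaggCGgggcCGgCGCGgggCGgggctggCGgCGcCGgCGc
Prrg1: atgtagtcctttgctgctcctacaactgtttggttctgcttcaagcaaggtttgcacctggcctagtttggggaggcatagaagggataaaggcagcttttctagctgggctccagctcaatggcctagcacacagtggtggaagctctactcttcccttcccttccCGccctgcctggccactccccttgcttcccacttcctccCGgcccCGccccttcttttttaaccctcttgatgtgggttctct
Zfp518b: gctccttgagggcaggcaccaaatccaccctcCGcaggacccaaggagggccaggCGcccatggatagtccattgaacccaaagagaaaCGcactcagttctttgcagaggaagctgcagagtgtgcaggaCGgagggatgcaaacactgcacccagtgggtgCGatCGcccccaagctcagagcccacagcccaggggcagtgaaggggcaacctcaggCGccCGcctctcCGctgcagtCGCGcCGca

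The printed stretch held 9 CG in Cdcp1, 20 in Aplp1, 3 in Prrg1 and 12 in Zfp518b, so these promoters differed widely. Over the whole window of 300 bases, the number of CG was 16 for Cdcp1, 26 for Aplp1, 4 for Prrg1 (14 at its other start) and 21 for Zfp518b, and it was 34 for Larp6 and 29 for Clec2l. The median was 21, with quartiles of 13 and 29, over 12053 promoters of genes with at least 0.5 TPM in WT5, and 7 over all 32851 promoters. Aplp1, Zfp518b, Larp6 and Clec2l, 4 of 6, had a GC content of at least 50% and a ratio of observed to expected CG of at least 0.6 (0.767, 0.640, 0.843 and 0.715), which 68.5% of the promoters of expressed genes had. For Cdcp1 the ratio was 0.581 and for Prrg1 0.180, or 0.494 at its other start. All 6 held the letters GGGCGG, the GC box bound by Sp1 family factors, on 1 of the strands, as did 64.2% of expressed and 35.7% of all promoters. Neither CCAAT (37.8% and 37.4%) nor TATAAA (6.58% and 13.6%) was present on either strand of any of the 6, which says only that these letters do not occur in the window. With 6 promoters, these counts describe the genes and no difference from other promoters was tested.

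**Figure D2:**
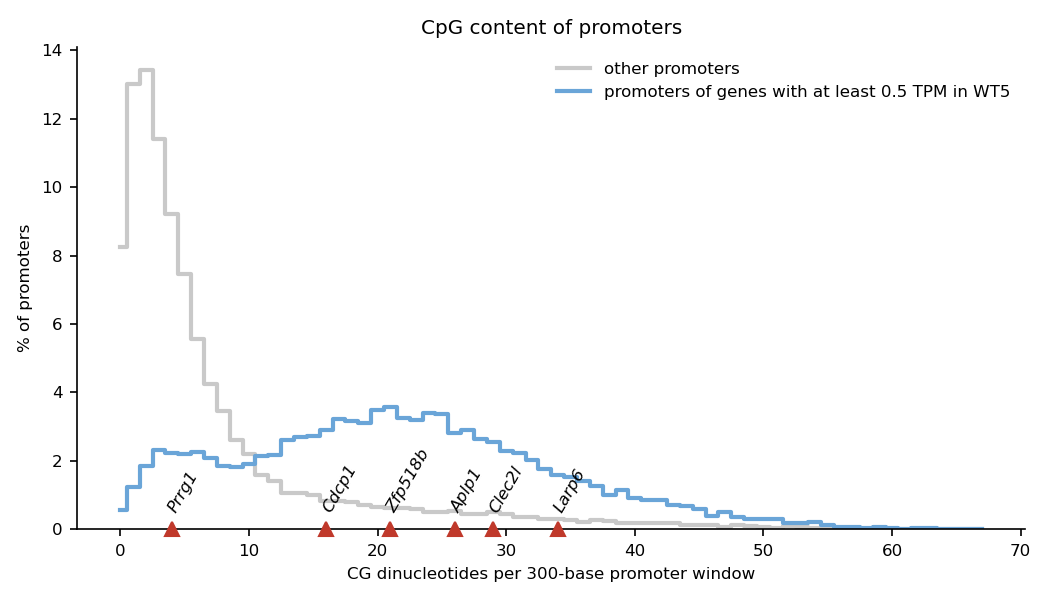
Number of CG dinucleotides per 300-base promoter window (horizontal axis) against the percentage of promoters (vertical axis), for genes with at least 0.5 TPM in WT5 (blue) and all others (grey). Red triangles mark 6 of the genes: Prrg1 lies at 4, Cdcp1 at 16, and the other 4 between 21 and 34.

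Gsdmd was the only gene lost in both subclones 1 and 2. It (ENSMUSG00000022575) lies at chr15:75862327-75867408 on the plus strand. WT5 libraries had 1.95, 2.38, 2.51 and 2.36 TPM (2.30 ± 0.243, n = 4), compared with 0.05, 0.07, 0.05 and 0 TPM in subclone 1 and 0.1, 0.12, 0.21 and 0.07 TPM in subclone 2. These means are 1.85% and 5.43% of WT5, and the libraries of both subclones overlapped with each other and with polyclonal WT at 0.08, 0.06, 0.07 and 0.08 TPM. Subclones 3, 4 and 5 kept the gene at 1.28 to 1.72, 1.47 to 2.08 and 1.74 to 2.68 TPM. Neighbouring groups in that order overlapped from WT5 down to subclone 3, and the highest of these 3 subclone means was 1.36 times the lowest.

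Larp6 and Clec2l were each lost in 1 subclone and varied more than Gsdmd in the others. Larp6 (ENSMUSG00000034839, chr9:60712989-60738801, plus strand) had 1.23, 1.66, 1.53 and 1.49 TPM in WT5 and 0.03, 0.02, 0.02 and 0.06 TPM in subclone 1, which is 2.20% of WT5. Subclones 2 and 3 overlapped with WT5 at 1.41 to 2.33 TPM and 1.49 to 1.9 TPM. Subclone 4 (0.4, 0.46, 0.63 and 0.76 TPM) and subclone 5 (0.71, 0.58, 0.58 and 0.66 TPM) lay between, apart from both ends and at 38.1% and 42.8% of WT5. Polyclonal WT had 0.04 TPM in 1 library and was listed at 0 in the other 3. Clec2l (ENSMUSG00000079598, chr6:38663069-38680864, plus strand) had 1.26, 1.05, 1.53 and 1.28 TPM in WT5 and 0.05, 0.03, 0.06 and 0.06 TPM in subclone 2, which is 3.91% of WT5. For this gene the other groups formed a continuous series, from 2.52, 1.77, 1.76 and 1.1 TPM in subclone 1 to 0.58, 0.15, 0.63 and 0.7 TPM in subclone 3, in which neighbours in the order overlapped at every step. Polyclonal WT, at 0.1, 0.15, 0.03 and 0.14 TPM, overlapped with subclone 2.

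Of the 25 combinations in which a gene was kept, 13 had every library below every WT5 library, 9 overlapped with WT5, and 3, all of them Prrg1, were above it. Over all 12775 genes with at least 0.5 TPM in WT5 and all 5 subclones, 30.0% of combinations lay below every WT5 library and 13.4% above. The 25 combinations are what the choice of genes left over, so no difference from these shares was tested. WT5 and the subclones stand in separate tables, so that a difference shared by all subclones and a difference between tables cannot be told apart. No stretch of 50 bases in the longest transcript of any of the 7 genes occurred in a transcript of another gene, which is where reads could be assigned to the wrong gene. Shorter transcripts of the 7 genes were not examined.

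Losses of this depth were rare among expressed genes. Of the 12775 genes with at least 0.5 TPM in WT5, the share at most 10% of WT5 was 0.454%, 0.431%, 0.36%, 0.368% and 0.509% for subclones 1 to 5, which is between 46 and 65 genes each. These shares describe the class from which the 7 genes were taken. In all, 148 genes fell below this level in at least 1 subclone, 83 of them in a single subclone and 9 in all 5, and 68 were listed at 0 in all 4 libraries of such a subclone. Of the 148, 73 are protein-coding, as all 7 genes here are, compared with 11490 of the 12775. Cdcp1, at 31.4 TPM in WT5, lay far to the right of most genes listed at 0 in the plot of group means.

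**Figure D3:**
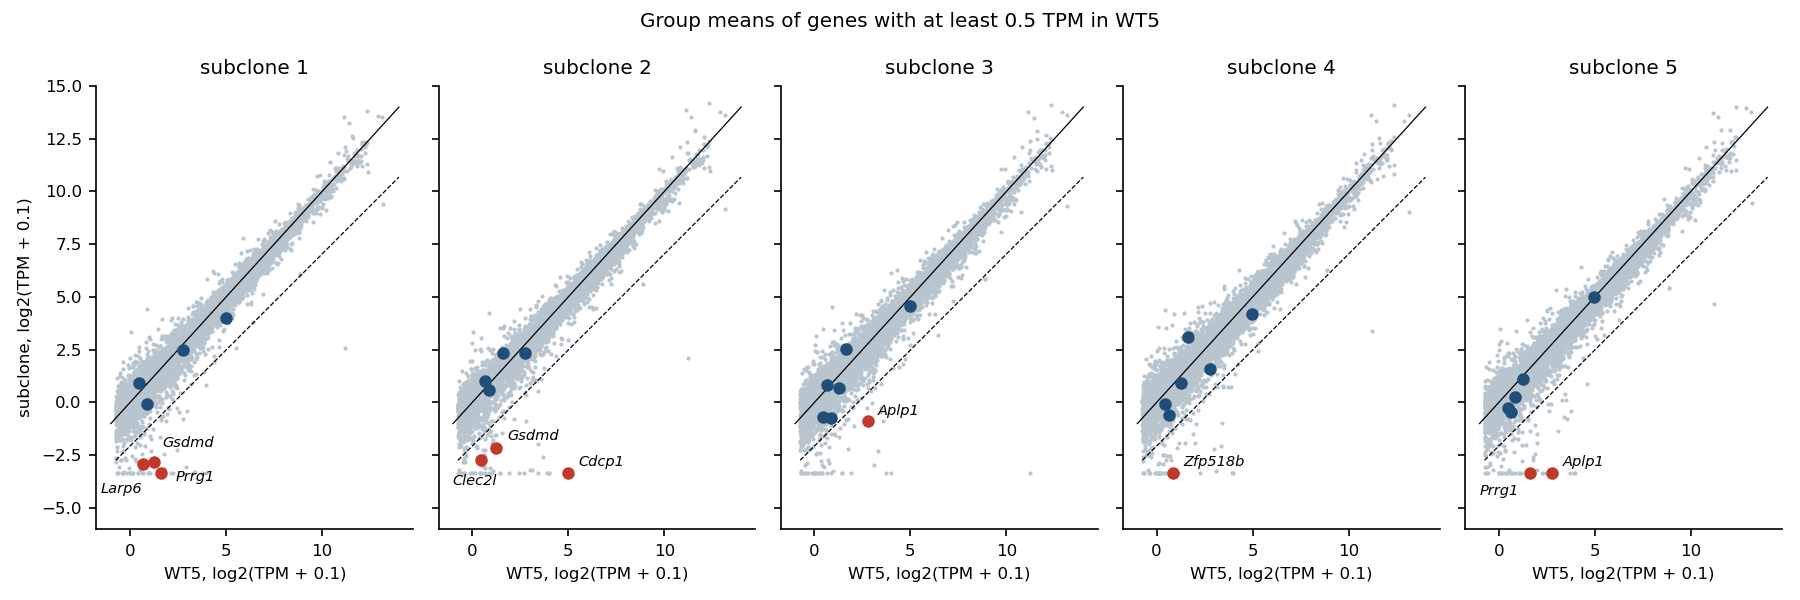
Mean level in WT5 (horizontal axes) against the mean level in each subclone (vertical axes), both as log2(TPM + 0.1), for 12775 genes. The solid line marks equal levels and the dashed line 10% of WT5. Red points are the genes lost in that subclone, all below the dashed line, and blue points the other genes of the 7.

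The level in polyclonal WT was not used to choose the genes, although expression in WT5 was, and this comparison shares its WT5 libraries with those above. Differences were tested with limma and Benjamini-Hochberg adjustment on log2(TPM + 0.1) over 14939 genes, and called at an adjusted p below 0.01 and a log2 difference above 1 in size. Aplp1, Zfp518b, Gsdmd, Larp6 and Clec2l were called higher in WT5, as were 16.2% of all genes tested. All 5 had passed the filter of 0.5 TPM through WT5 alone and had been chosen as expressed there, so their number and direction were in large part set by the choice and are given as a description. The log2 differences, WT5 minus polyclonal WT, were 5.60 for Aplp1 (SE 0.273, adjusted p = 6.37e-07), 4.13 for Zfp518b (SE 0.206, adjusted p = 7.2e-07), 3.79 for Gsdmd (SE 0.0839, adjusted p = 8.32e-09), 3.85 for Larp6 (SE 0.137, adjusted p = 1.12e-07) and 2.79 for Clec2l (SE 0.217, adjusted p = 9.04e-06). The same 5 genes were at most 10% of the WT5 mean in polyclonal WT, as were 4.24% of the genes expressed in WT5. Aplp1 stood at 0.743%, Gsdmd at 3.15%, Larp6 at 0.677% and Clec2l at 8.20%, with Zfp518b listed at 0. This contrast was also in part set by the choice of genes and is given as a description. Prrg1 fell by 1.16 on the log2 scale from polyclonal WT to WT5 (SE 0.186, adjusted p = 0.000596), as 16.6% of the genes tested were called lower. Cdcp1 was higher in WT5 by 0.56 (SE 0.0537, adjusted p = 2.9e-05), below the size required for a call. For all 7 genes the 4 libraries of WT5 did not overlap with the 4 of polyclonal WT, which was also so for 76.0% of all genes tested.

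The call for Prrg1 was lost with a pseudocount of 1 (log2 difference -0.96), with z-scores (-0.46 z units) and with an unequal-variance test (adjusted p = 0.0136). Reads were single-end and 50 bp long for polyclonal WT but paired-end and 150 bp long for WT5, which was sequenced at another time, so the line and the sequencing run cannot be told apart, and the median difference over all genes was 0.15.

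Around each lost gene, the 5 nearest tested genes on either side, chosen by position, were compared between the subclone and WT5 in the same way, which asks whether a loss extended beyond the gene. Of these 100 combinations, covering 71 genes, limma called 3, 46 had an unadjusted p below 0.05, and an unequal-variance test called 2. In either direction, 2.85%, 2.63%, 3.53%, 4.7% and 3.39% of all genes tested were called in subclones 1 to 5, so 3 of 100 is near the background. The share of all genes at that unadjusted p was not worked out. For 38.6% to 52.5% of the genes expressed in WT5, by subclone, the subclone libraries did not overlap with those of WT5. No neighbour was at or below 10% of its WT5 mean, their median log2 difference was -0.03, and 7 of the 10 losses had no neighbour called.

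**Figure D4:**
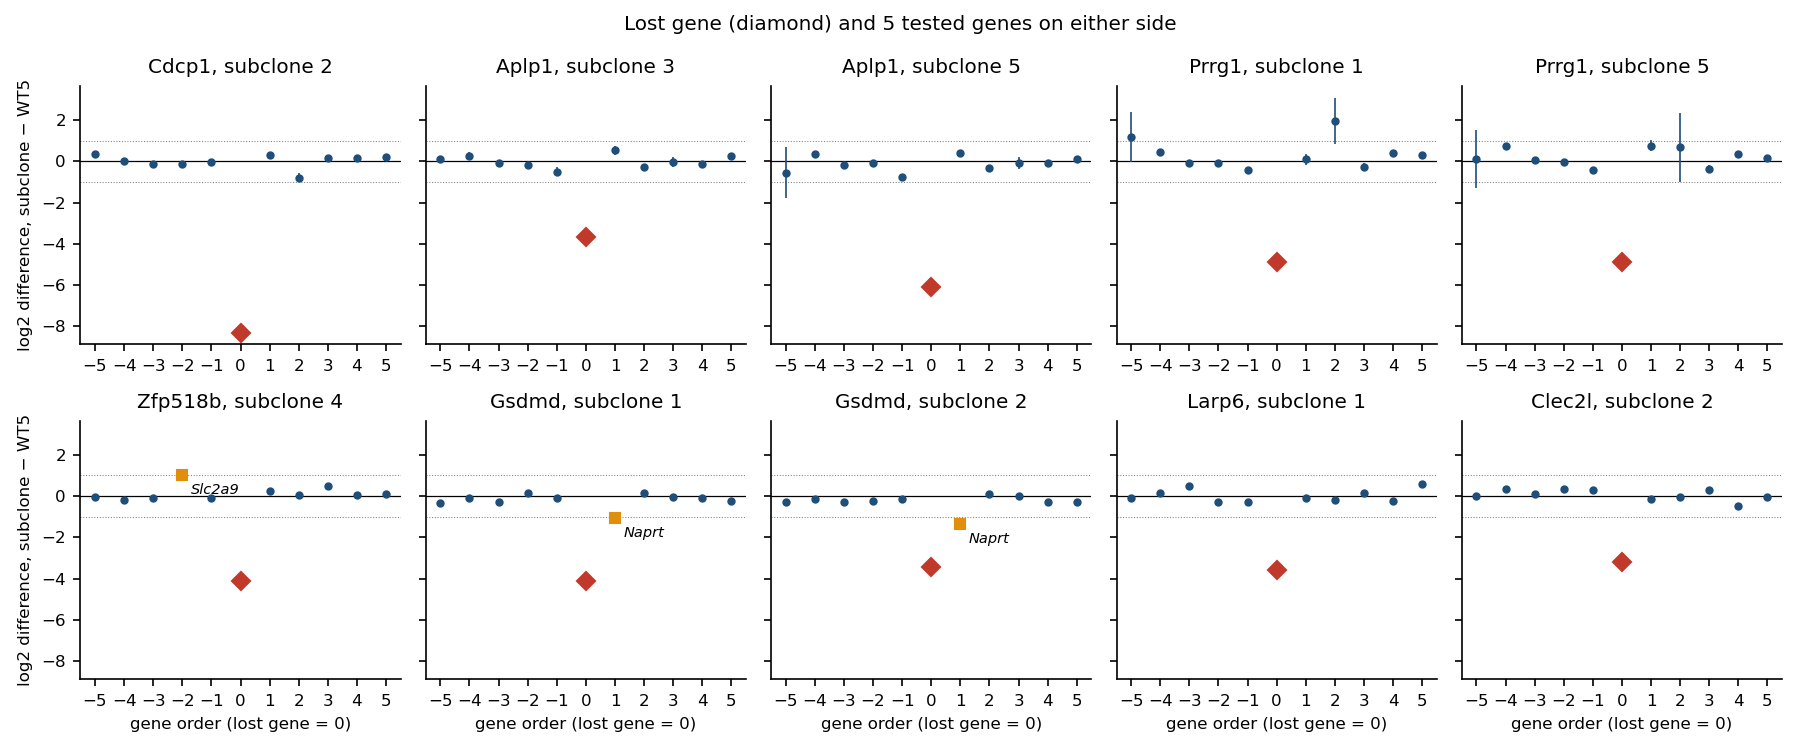
Log2 difference, subclone minus WT5 on log2(TPM + 0.1) (vertical axes), of the lost gene (red diamond) and of the 5 nearest tested genes on either side, by order along the chromosome. Diamonds of genes listed at 0 depend on the pseudocount. Bars are SE, orange squares are the 3 combinations called (Slc2a9 once and Naprt in 2 subclones), and dotted lines mark a difference of 1 in size.

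Of the tested genes directly beside a lost gene, Naprt alone was called. Next to Cdcp1, which was listed at 0 in subclone 2, Exosc7 had 35.3 TPM in WT5 and 34.5 TPM in that subclone, and Tmem158 had 2.55 and 3.20 TPM. Next to Zfp518b, Wdr1, an actin regulator, had 215.5 TPM in WT5 and 202.8 TPM in subclone 4. Next to Aplp1, Nfkbid had 0.695 TPM in WT5 and 0.475 and 0.373 TPM in subclones 3 and 5, and Arhgap33 had 3.75, 5.72 and 4.99 TPM. The means of Nfkbid in the 3 subclones that kept Aplp1 were higher, at 0.620 to 0.790 TPM, and its difference in subclone 5 (log2 difference -0.75, adjusted p = 0.00557, limma) was below the size for a call. On the X chromosome, the protein kinase gene Prkx, with its start 787.6 kb from that of Prrg1, had 21.3 TPM in WT5 and 16.0 and 15.9 TPM in the subclones with no Prrg1, but also 15.2 TPM in subclone 3, which kept it. The genes beside Larp6, Lrrc49 (10.5 and 8.66 TPM) and Uaca (12.8 and 12.1 TPM), and beside Clec2l, Klrg2 (15.7 and 19.3 TPM) and Hipk2 (15.1 and 13.6 TPM), were not called in subclones 1 and 2 respectively. The genes examined spread over distances from 67.5 kb on one side of Gsdmd to 15048.3 kb on one side of Prrg1.

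Naprt, which encodes an enzyme of NAD synthesis from nicotinic acid, is the nearest tested gene on the right of Gsdmd, with a start 32.2 kb away, and it was lower in both subclones that lost Gsdmd. Its level was 6.32, 5.93, 5.36 and 6.15 TPM in WT5, 2.64, 2.49, 2.69 and 3.21 TPM in subclone 1 and 2.69, 2.08, 1.95 and 2.38 TPM in subclone 2. The log2 differences were -1.08 (SE 0.0859, adjusted p = 0.00011, limma) and -1.35 (SE 0.103, adjusted p = 9.59e-05, limma). Naprt was also below every WT5 library in subclones 3 and 5, which kept Gsdmd, with means of 3.15 ± 0.216 and 2.58 ± 0.542 TPM (SD, n = 4), and stood at 6.07 ± 0.397 TPM in subclone 4. With a pseudocount of 1 the difference in subclone 1 was -0.89 and no longer called. Zc3h3, on the other side of Gsdmd, had 18.6 TPM in WT5 and 17.6 and 17.0 TPM in subclones 1 and 2.

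Slc2a9, a urate transporter and the second gene from Zfp518b, was higher in subclone 4, with 0.97, 0.94, 1.12 and 1.39 TPM against 0.51, 0.65, 0.55 and 0.32 TPM in WT5 (log2 difference 1.00, SE 0.192, adjusted p = 0.00311, limma). This call lay at the threshold and was lost without WT5 replicate 4 (0.84), without subclone 4 replicate 3 (0.99) and without subclone 4 replicate 4 (0.90). Compared with the mean of the other 4 subclones in place of WT5, limma called 0 of the 100 neighbours, with 14 at an unadjusted p below 0.05. The libraries of those 4 were pooled as 1 group, so differences between the 4 lines enter the error. Over all 13466 genes tested, that comparison called 40, 43, 38, 142 and 94 in subclones 1 to 5. An unadjusted p below 0.05 was reached by 1582, 1453, 1104, 3598 and 3221 of them, so neither count sets the neighbours apart. For 6 of the 10 losses, those of Aplp1, Prrg1 and Gsdmd, the other 4 subclones include 1 that had also lost the gene, which weakens the contrast.

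Genes of the same family or pathway as each of the 7 were compared with WT5 in the subclones that had lost the gene. Over these lists, limma called 1 of 99 combinations of gene and subclone, 47 had an unadjusted p below 0.05, and an unequal-variance test also called 1. Of all genes tested, 2.63% to 4.7% were called in a subclone, so 1 of 99 is not above the background. The 47 have no share over all genes beside them, as for the neighbours. In subclone 2, all 15 genes of Src family kinase signalling around Cdcp1 were tested and none was called, with a median log2 difference of -0.13 compared with -0.06 over all genes. Itgb1, the integrin beta chain, had 472.1 TPM in WT5 and 373.7 TPM in subclone 2, Pxn 168.9 and 154.7 TPM, and St14, the protease matriptase, 158.0 and 117.2 TPM. The largest difference in that list was that of the urokinase receptor gene Plaur (-0.53, adjusted p = 0.00135, below the size for a call), which had 68.0 TPM in WT5, 47.3 TPM in subclone 2 and 45.5 to 51.8 TPM in the subclones that kept Cdcp1.

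Of the amyloid precursor family and its secretases, 15 genes were tested in the 2 subclones that lost Aplp1, with none called and medians of -0.26 in subclone 3 and -0.17 in subclone 5, compared with -0.09 and -0.10 over all genes. App itself had 698.6 TPM in WT5 and 623.8 and 620.8 TPM in these subclones, and Aplp2 had 333.1, 202.3 and 277.4 TPM, with 220.6 to 262.8 TPM in the subclones that kept Aplp1. App and Aplp2 were thus above Aplp1 (6.73 TPM) in WT5 on the TPM scale. Where Prrg1 was absent, its relatives Prrg2 and Prrg4 were present, at 25.6 and 19.2 TPM in subclone 1 and 23.5 and 18.8 TPM in subclone 5. In WT5 they had 36.3 and 18.8 TPM. Prrg2 was thus lower in both subclones (-0.50, adjusted p = 0.00255, and -0.62, adjusted p = 0.00159, both limma and below the size for a call). Its libraries in subclones 1 and 5 lay below every WT5 library, as for 28.2% and 30.7% of the genes expressed in WT5. Levels of Prrg2 in the subclones that kept Prrg1 are not given here. None of the 6 genes tested of the Gla protein and vitamin K list was called. Pros1, protein S, had the largest size of difference there, with 45.9 TPM in WT5 and 29.2 and 29.5 TPM in subclones 1 and 5 (-0.65, adjusted p = 3.28e-05, and -0.64, adjusted p = 0.000445, both limma and below the size for a call). Of the subclones that kept Prrg1, subclones 2 and 4 were as low in Pros1 (28.3 and 29.4 TPM) and subclone 3 had 43.1 TPM.

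All 16 genes around histone methylation were tested in subclone 4 and none was called, with a median of 0.01 compared with -0.07 over all genes. Ehmt2, the H3K9 methyltransferase also called G9a, had 133.2 TPM in WT5 and 132.1 TPM in subclone 4, Trim28 had 248.9 and 255.4 TPM, and Zfp518a, the paralog of the lost gene, had 6.16 and 7.64 TPM. Cbx3, heterochromatin protein 1 gamma, had the largest size of difference, from 245.7 to 397.3 TPM (0.69, adjusted p = 1.78e-05, limma, below the size for a call), with 286.6 to 298.9 TPM in the subclones that kept Zfp518b.

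Of 26 pyroptosis genes only 6 were expressed enough to be tested and none of these was called in subclone 1 or 2, with medians of 0.01 and -0.08. Gsdme, another gasdermin, had 4.20 TPM in WT5 and 2.87 and 3.10 TPM in these subclones, and Casp4, an inflammatory caspase, had 8.96, 13.04 and 9.31 TPM. Casp1, another caspase that cleaves gasdermin D, was listed at 0 in WT5, and so was the inflammasome sensor Nlrp3.

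In subclone 1, 1 of 13 genes around Larp6 was called: Vim, the intermediate filament vimentin, fell from 16.8 ± 3.13 TPM in WT5 to 5.70 ± 0.615 TPM (log2 difference -1.53, adjusted p = 0.000258, limma). Vim was also below every WT5 library in the subclones that kept Larp6 (means of 2.47 to 6.14 TPM) and against these it was not called. Col1a1, a collagen gene whose mRNA Larp6 binds, was low in both WT5 and subclone 1, at 0.958 and 0.480 TPM (log2 difference -0.67, adjusted p = 0.183, limma). The WT5 libraries spread from 0.57 to 2.06 TPM, and the subclones that kept Larp6 had means of 0.315 to 0.5825 TPM. Of 13 genes of the CLEC2 lectins and their receptors, Clec2d alone was expressed enough to be tested in subclone 2, with 2.95 TPM in WT5 and 5.24 TPM there (0.81, adjusted p = 0.000326, limma, below the size for a call), and it was above WT5 in every subclone mean (3.88 to 9.01 TPM). None of the 99 combinations was called in the comparison with the other 4 subclones, where 15 had an unadjusted p below 0.05 with limma. Few of all genes tested were called in that comparison, as given for the neighbours, so these counts do not set the lists apart.

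For each gene, the genes most alike in pattern over the 24 libraries of WT5 and the subclones were looked up by Pearson r on log2(TPM + 0.1), which does not require a loss of the same depth. The 3 genes with the highest r are given for each of the 7, out of 13524 genes, as a description, since libraries of 1 line are not independent and a single line at 0 can set r. For Cdcp1 these were Snrpn (r = 0.994), Ccl2 (0.975) and Snhg14 (0.966). Snrpn and Snhg14 lie side by side on chromosome 7, in a region that is imprinted and read from the paternal copy, and Snrpn had means of 6.35 TPM in WT5, 3.93 to 5.50 TPM in 4 subclones and 0 in all libraries of subclone 2. Snrpn overlaps Snurf and Gm38393 on the same strand, and reads in these genes may have been split. Ccl2, a chemokine, had 12.8 TPM in WT5, 0.065 TPM in subclone 2 and 18.5 to 28.1 TPM in the others.

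For Prrg1, the 3 genes all lie on chromosome 7: Zfp109 (r = 0.957), Cdkn1c (0.956) and Gmfg (0.922). They are not side by side, as their positions begin at bases 24227572, 143458339 and 28437447. Zfp109 had 0.130 and 0.0575 TPM in subclones 1 and 5 and 1.04 to 1.70 TPM in subclones 2, 3 and 4, around 1.08 TPM in WT5. Cdkn1c, an imprinted inhibitor of cyclin-dependent kinases, had 3.34 TPM in WT5, 1.495 and 0.815 TPM in subclones 1 and 5 and 5.66 to 6.74 TPM in the others, on either side of WT5 as for Prrg1. Gmfg had 1.28 and 0.650 TPM in subclones 1 and 5 and 4.77 to 6.44 TPM in the others.

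The depth of the loss varied among the genes nearest in pattern to the rest. For Aplp1 these were Obsl1 (r = 0.932), Ier5l (0.914) and Wnt2 (0.911). Obsl1 had 11.2 TPM in WT5, 0.983 TPM in subclone 5 and 4.58 TPM in subclone 3, but 23.4 TPM in subclone 1, above WT5 where Aplp1 was below it. Ier5l differed little, with 54.4 TPM in WT5 and 31.5 TPM in subclone 5. For Zfp518b they were Misp (0.971), Rad18 (0.963) and Mkrn2 (0.959), with Misp at 18.7 TPM in WT5 and 3.42 TPM in subclone 4 and Rad18 at 36.9 and 20.95 TPM. For Larp6 they were Magohb (0.939), the processed pseudogene AA414768 (0.931) and Bspry (0.917), and AA414768 had 7.60 TPM in WT5 and 0.645 TPM in subclone 1, compared with 28.7 and 10.3 TPM for Magohb and 15.2 and 1.65 TPM for Bspry. For Gsdmd they were Clstn3 (0.914), Unc93b1 (0.889) and Zfp493 (0.887). Unc93b1, a chaperone of Toll-like receptors, had 1.98 TPM in WT5, 0.228 and 0.163 TPM in subclones 1 and 2 and 0.578 TPM in subclone 3. For Clec2l they were Fstl1 (0.912), Pcsk6 (0.901) and Snrpn (0.863), and Fstl1 had 11.9 TPM in WT5 and 2.05 TPM in subclone 2.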

How the data were processed

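RNA was taken from 28 mIMCD-3 libraries, 4 for each of 7 lines. The authors aligned reads to GRCm38 with STAR 2.7.3a and Ensembl release 81, quantified genes with RSEM 1.3.1 and deposited TPM values, with polyclonal WT and WT5 in one table and the subclones in another. TPM keeps no depth, so no counting error can be given. Values have 2 decimals. Tables were joined by gene identifier, of which 45143 of 45706 matched GENCODE M21.

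Here limma 3.58.1 (R 4.3.3) was run on log2(TPM + 0.1), in a separate fit for each comparison. Genes needed a mean of at least 0.5 TPM in a group compared. Fits of WT5 with polyclonal WT or with a subclone used 8 libraries. The fit against the other 4 subclones used all libraries of the 5 subclones, with those of the other 4 pooled as 1 group. It took no account of line, so differences between those 4 lines enter its error. A pseudocount understates changes of low genes. The z-score of log2(TPM) that the study names was an alternative, here without genes at 0, since how it treated these is not given in the sources used here. Genes named were the 7, the nearest neighbours, called neighbours, the 3 genes of highest r, markers and, of each list, called genes and the most abundant. Values of 2 list genes are not reported here. Other list genes were named for their role or size of difference, after their values were seen. The 7 genes and all lists were chosen with earlier results of these data known. The fits were tested on simulated data. Promoters and positions came from RefSeq and GENCODE, with Python 3.11.15.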

Additional observations from a re-analysis of the deposited data

Results flagged for a closer look

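Among 43 groups of 4 libraries examined, 3 held a library apart from the rest by Dixon's criterion, which chance gives in about 1 of 20 groups. Cdcp1 in WT5 had a highest library of 32.03 TPM, above a next value of 31.25 and a lowest of 31.19 TPM, so the range is narrow. Prrg1 in subclone 2 had a highest library of 5.84 TPM, with the others from 4.73 to 4.81 TPM. Larp6 in polyclonal WT had 1 library at 0.04 TPM and the others at 0.

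Prrg1 moved in opposite directions, with every library above every WT5 library in 3 subclones (2, 3 and 4) and every library below in 2 (1 and 5). The difference between these subclones was not tested, since the gene was chosen by it.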

How the results depend on the processing

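Of the values recomputed under other settings, none changed direction. Counts of the 10 losses stayed between 8 (threshold at 5%) and 10. Between WT5 and polyclonal WT, 5 genes were called higher and 1 lower under most settings and whichever replicate was left out. The 10 losses and the 5 higher calls were in large part set by the choice of genes, so their stability is only a description. With z-scores only 4 of the 7 genes could be tested, as the others have a library at 0, and 2 were called higher and 0 lower. The 1 lower call, Prrg1, also became 0 with a pseudocount of 1 and 0 with the unequal-variance test. The 3 neighbours called became 1 with a pseudocount of 1, 0 with z-scores (51 at an unadjusted p below 0.05, limma) and 0 against the other 4 subclones, and 2 to 3 when a replicate was left out. The 1 list gene called became 0 with z-scores (53 at an unadjusted p below 0.05, limma) and 0 against the other 4 subclones. The share of all genes at that unadjusted p was not worked out for z-scores. The counts of 51 and 53 therefore do not set the neighbours or the lists apart. In the comparison with the other 4 subclones, only 38 to 142 of all 13466 genes tested were called. A z-score difference of 1 is a larger step than a log2 difference of 1, and for the other settings the cause was not tested. Of the 21 genes with the highest r, 12 were again among the first 3 with a pseudocount of 1 and 16 with 0.01.

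Replicate numbers were not taken to pair libraries, as correlations of same-numbered libraries were between -0.08 and 0.08. With the replicate number as a block, 5 genes were called higher and 1 lower in WT5, 2 neighbours and 1 list gene were called, and Slc2a9 was lost (adjusted p = 0.0241, limma). Slc2a9 also fell below the thresholds with a pseudocount of 1 (0.48), z-scores (0.32 z units) and the unequal-variance test (adjusted p = 0.0149). Depth is unknown, so a gene listed at 0 cannot be given an upper limit.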
